A study of Mus musculus with 13 samples.

Results

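Chemical reprogramming turns mouse fibroblasts into pluripotent cells with small molecules alone, and a green fluorescent protein (GFP) reporter under control of Pou5f1, the gene of the pluripotency factor Oct4, marks cells on the way. RNA sequencing compared clusters of GFP-positive cells (1 library) with GFP-negative cells (2 libraries), both picked from treated cultures of C57xICR mouse embryonic fibroblasts (MEF). The clusters carry the treatment label VC6TF+Z and the GFP-negative cells the label VC6TF. The letters are known to stand for valproic acid, CHIR99021, RepSox (coded 6), tranylcypromine and forskolin, with DZNep as Z. MEF replicates 1 and 2, untreated fibroblasts of the same strain, are shown beside them. The extra agent, the GFP state and the picking cannot be told apart between clusters and GFP-negative cells, and the labels give no day of collection. With 1 library of clusters no difference could be tested, and the 2 GFP-negative libraries are not said to come from separate cultures.

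A gene was kept when the value in the clusters lay outside the range of both GFP-negative libraries and the highest of these 3 values was 5 RPKM or more. RPKM counts the reads of a gene relative to its length in kilobases and to the size of the library. Of 15176 genes with a symbol of their own, 3010 reached 5 RPKM, and 2285 of these (75.9%) were kept. The clusters lay above both GFP-negative libraries in 1133 genes (37.6%) and below both in 1152 (38.3%). One of 3 values is always the highest and one the lowest, so a narrower group was set apart, in which the clusters were at least 1 beyond the nearer GFP-negative library on the log2(RPKM + 1) scale, called 2-fold here. It held 521 higher genes (17.3%) and 468 lower genes (15.5%), together 989 (32.9%). Just inside and just outside the minimum of 5 RPKM lay Med8, with 5.002 RPKM as its highest value, and Tulp2, with 4.997 RPKM. Just inside and just outside the 2-fold limit lay Krt13, at -1.001 from the nearer GFP-negative library on the log2 scale, and Ets2, at -0.9994.

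Fibroblasts are mesenchymal cells, held apart from each other and embedded in collagen, and they lose this state early in reprogramming while epithelial adhesion and keratin genes come on. Chemical reprogramming of mouse fibroblasts is known to pass through cells with extraembryonic endoderm genes, led by the transcription factors Gata4 and Gata6, before the Oct4, Sox2 and Nanog circuit is active. Signals of the BMP, Wnt and FGF families and the cAMP pathway, which forskolin activates, feed into these steps.

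The values are per kilobase of the whole gene, introns included, so genes with long introns have low RPKM. For 13671 genes with an annotated length the values could be turned back into estimated reads, at a depth of 8.92 M reads in the clusters, 11.1 and 10.3 M reads in GFP-negative cells and 11.9 and 17.8 M reads in MEF. A second measure without a minimum of RPKM rests on them. A gene counts as higher or lower by reads where the exact 95% Poisson interval of the clusters overlaps with neither GFP-negative interval and the reads relative to depth differ at least 2-fold from the nearer library, with counts under 3 reads set to 3. By reads 1663 genes (12.2%) were higher in the clusters and 2158 (15.8%) lower. These intervals cover counting error only. The libraries themselves differed by more: over the 3010 genes the median absolute difference on the log2(RPKM + 1) scale was 1.19 and 1.04 between the clusters and GFP-negative libraries 1 and 2, 0.84 between the GFP-negative libraries and 0.27 between the MEF libraries. The 2 GFP-negative libraries lay 2-fold or more apart in 43.5% of the genes, and the MEF libraries in 5.15%. Each value below should be read against that spread, which is shown by giving both GFP-negative values.

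**Figure D1:**
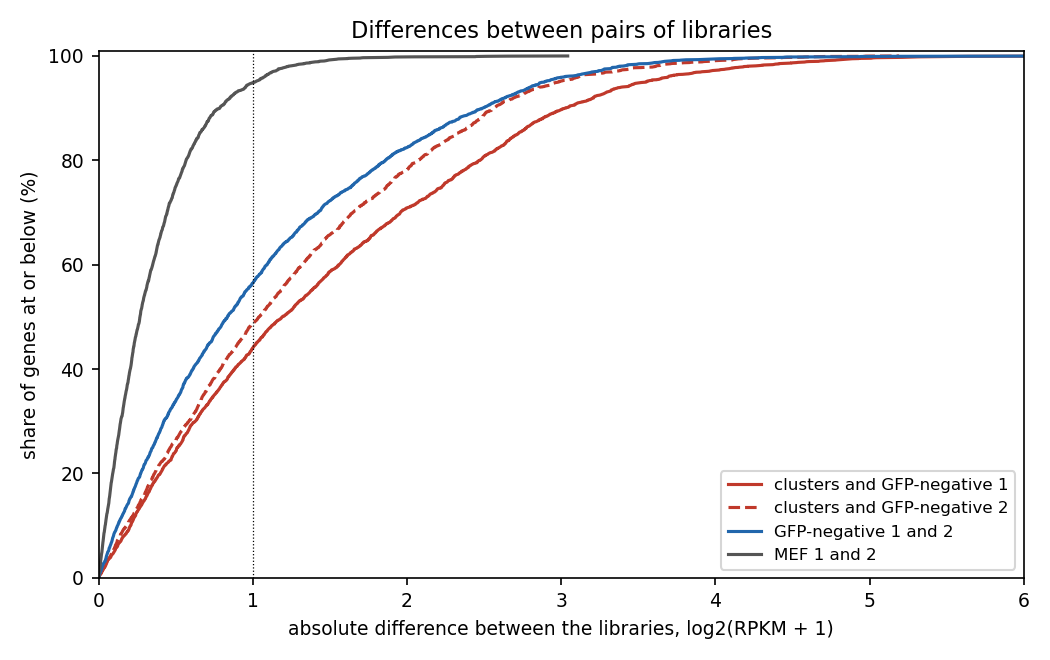
Share of the 3010 genes (vertical axis, percent) whose absolute difference between a pair of libraries on the log2(RPKM + 1) scale is at or below the value on the horizontal axis. The curves of the clusters against GFP-negative 1 and 2 (red) lie to the right of the curve of the GFP-negative libraries (blue), with medians of 1.19, 1.04 and 0.84, and the MEF libraries (grey) lie far to the left, with a median of 0.27.

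The sequences just upstream and at the start of 5 genes that the results return to are shown, 3 higher and 2 lower in the clusters. They are 300 bases long, from 250 bases before the start of the gene, come from RefSeq on build GRCm38.p6 and are written 5′ to 3′ on the strand of the gene. Capitals mark the letters TATAAA, TGACGTCA (the cAMP response element, CRE), TGANTCA (the AP-1 site of Fos and Jun proteins) and CACCTG (an E-box bound by Snail and Zeb factors), each sought on both strands. Gjb5 and Kdr, a connexin and a receptor of vascular endothelial growth factor, and Klf2, a Krüppel-like pluripotency factor, were higher. Areg, an EGF receptor ligand, and Mmp3, a matrix protease, were lower.
Gjb5, chr4:127358115-127358414, minus strand: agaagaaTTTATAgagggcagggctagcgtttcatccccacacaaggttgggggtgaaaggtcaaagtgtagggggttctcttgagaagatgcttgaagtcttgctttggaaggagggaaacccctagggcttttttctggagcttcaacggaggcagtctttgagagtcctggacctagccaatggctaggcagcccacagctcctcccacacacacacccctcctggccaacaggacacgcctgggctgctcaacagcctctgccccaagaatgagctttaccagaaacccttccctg
Kdr, chr5:75978406-75978705, minus strand: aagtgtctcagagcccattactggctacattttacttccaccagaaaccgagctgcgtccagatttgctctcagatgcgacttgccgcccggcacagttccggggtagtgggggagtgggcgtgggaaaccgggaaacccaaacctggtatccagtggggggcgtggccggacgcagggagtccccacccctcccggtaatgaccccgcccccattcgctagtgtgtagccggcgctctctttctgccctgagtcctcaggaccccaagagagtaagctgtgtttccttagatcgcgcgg
Klf2, chr8:72318812-72319111, plus strand: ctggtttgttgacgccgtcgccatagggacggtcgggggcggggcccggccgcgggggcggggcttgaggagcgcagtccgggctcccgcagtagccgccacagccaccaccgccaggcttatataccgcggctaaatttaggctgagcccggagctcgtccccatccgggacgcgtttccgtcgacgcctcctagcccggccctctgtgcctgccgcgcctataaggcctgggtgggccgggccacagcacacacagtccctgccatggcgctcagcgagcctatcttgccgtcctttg
Areg, chr5:91139349-91139648, plus strand: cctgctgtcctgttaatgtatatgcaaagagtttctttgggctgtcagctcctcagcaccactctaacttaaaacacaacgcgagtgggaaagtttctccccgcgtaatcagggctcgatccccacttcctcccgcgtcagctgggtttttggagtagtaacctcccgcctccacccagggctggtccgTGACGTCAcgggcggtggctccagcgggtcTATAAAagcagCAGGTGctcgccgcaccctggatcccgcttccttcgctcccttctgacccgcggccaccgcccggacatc
Mmp3, chr9:7445572-7445871, plus strand: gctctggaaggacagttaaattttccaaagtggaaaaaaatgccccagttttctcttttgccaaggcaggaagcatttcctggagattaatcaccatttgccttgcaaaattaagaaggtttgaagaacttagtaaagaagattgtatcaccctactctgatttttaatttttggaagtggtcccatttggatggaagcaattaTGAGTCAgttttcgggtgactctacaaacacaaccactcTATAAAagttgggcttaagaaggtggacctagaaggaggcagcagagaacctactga
The Areg window held a CRE at position 190, a TATA match at 220 and an E-box at 231, counted from the first base shown, and the Mmp3 window held an AP-1 match at 205 and a TATA match at 244. Gjb5 had a TATA match, on the opposite strand, at position 8, and neither Kdr nor Klf2 held any of these letters. The Klf2 window had 32 CG dinucleotides, that of Areg 21, Kdr 19, Gjb5 3 and Mmp3 1. Of all 10558 promoters matched to the table, 3.08% held the CRE, 5.15% the AP-1 letters, 18.6% the E-box and 7.49% the TATA letters. A match describes the sequence and is not evidence of binding.

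The clusters were first checked against the genes that mark them. Gata4 was 1.14 RPKM in the clusters, against 0.00124 and 0.0426 RPKM in GFP-negative cells and 0.00347 and 0.000774 RPKM in MEF. By estimated reads this was 740 in the clusters against 1 and 32 in GFP-negative cells, a level 26.8-fold above the nearer library. Gata6, the partner of Gata4 in primitive endoderm, was at 2.9 RPKM in the clusters, 0.243 and 1.02 RPKM in GFP-negative cells and 0.774 and 0.167 RPKM in MEF. By reads it lay 2.84-fold above the nearer GFP-negative library. Cdh1, the adhesion protein E-cadherin, was 1.71 RPKM in the clusters, 0.116 and 0.353 RPKM in GFP-negative cells and 0 and 0.00168 RPKM in MEF. None of these 3 reached 5 RPKM, so they are not among the kept genes, but all 3 were higher by reads. Kdr was 24.6 RPKM in the clusters, against 0.469 and 0.25 RPKM in GFP-negative cells and 0.922 and 1.15 RPKM in MEF. Gjb5 was at 37.6 RPKM in the clusters, 0.991 and 0.0574 RPKM in GFP-negative cells and 0.05 and 0.367 RPKM in MEF. Klf2 was 25.5 RPKM in the clusters, 0.0344 and 0.48 RPKM in GFP-negative cells and 9.93 and 12.4 RPKM in MEF. These 6 genes were named as markers with earlier results in view, so they describe the clusters. In all 6 of them the clusters lay above both GFP-negative libraries, and in all 6 also above both MEF libraries.

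Most pluripotency genes were near 0 in the clusters and in GFP-negative cells alike. Pou5f1, the gene whose control region drives the reporter, was 0.26 RPKM in the clusters, against 0.191 and 0.429 RPKM in GFP-negative cells and 0 and 0 RPKM in MEF, against 86.2 and 95.7 RPKM in embryonic stem cell (ESC) replicates 1 and 2. That is 11 estimated reads in the clusters and 10 and 21 in GFP-negative cells. Nanog was 0.141 RPKM in the clusters and 0.126 and 0.122 RPKM in GFP-negative cells, Sox2 0.365 RPKM and 0.0368 and 0.631 RPKM, and Sall4 0.0171 RPKM and 0.00921 and 0.0296 RPKM. The clusters lay within the GFP-negative range for Pou5f1, Sox2 and Sall4. GFP RNA was not analysed here. Of 29 pluripotency genes measured, 26 were under 1 RPKM in the clusters, as were 26 in each GFP-negative library. In the 14 with 10 RPKM or more in both ESC libraries, the median level was 0.279% of the ESC mean in the clusters, 0.0892% and 0.335% in GFP-negative cells and 0% and 0.00805% in MEF.

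Klf2, a factor that sustains naive pluripotency and is also made by endothelium, stood apart from the rest of the list. Its 25.5 RPKM in the clusters lay below the 29.5 and 49.2 RPKM of ESC. It was 597 estimated reads in the clusters against 1 and 13 in GFP-negative cells, which were also below the 9.93 and 12.4 RPKM of MEF. L1td1, an RNA-binding protein of pluripotent cells, was higher by reads at 2.17 RPKM in the clusters, 0.4 and 0.453 RPKM in GFP-negative cells and 0 and 0 RPKM in MEF. Tbx3 was lower, with 0.662 RPKM in the clusters, 4.04 and 6.4 RPKM in GFP-negative cells and 1.15 and 1.49 RPKM in MEF. Klf5 was lower by reads, with 0.0762 RPKM in the clusters, against 3.3 and 0.592 RPKM in GFP-negative cells and 1.82 and 0.988 RPKM in MEF. Tbx3 and Klf5 are transcription factors of the naive state that other tissues also use. By reads the list thus had 2 higher and 2 lower genes of 29, 6.90% each way, below the shares of all genes.

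The extraembryonic endoderm list was split. By reads 3 of its 25 measured genes were higher (12%) and 5 lower (20%), near the shares of all genes. Beside Gata4 and Gata6 the higher gene was Rbp4, the carrier of retinol in plasma and yolk, with 8.49 RPKM in the clusters, 0.0727 and 3.84 RPKM in GFP-negative cells and 0.155 and 0.0388 RPKM in MEF. The platelet-derived growth factor receptor Pdgfra, which marks primitive endoderm as well as fibroblasts, was 21.6 RPKM in the clusters, 11 and 13.7 RPKM in GFP-negative cells and 6.89 and 7.21 RPKM in MEF, under 2-fold beyond the nearer library. Regulators and products of endoderm were among the lower genes. Foxa2, a forkhead factor of definitive and visceral endoderm, was 0.0538 RPKM in the clusters, against 2.08 and 5.25 RPKM in GFP-negative cells and 0 and 0.0135 RPKM in MEF. Apoe, a lipid carrier made by visceral endoderm and many other cells, was at 1.5 RPKM in the clusters, 19.7 and 26.6 RPKM in GFP-negative cells and 22.6 and 23.7 RPKM in MEF. Fst, the secreted activin antagonist follistatin, was 1.64 RPKM in the clusters, 15.8 and 18.1 RPKM in GFP-negative cells and 44.8 and 31.4 RPKM in MEF. The basement membrane genes of endoderm did not follow Gata4 and Gata6: Lama1 had 1 estimated read in the clusters against 0 and 7 in GFP-negative cells, and Lamb1 was 3.25 RPKM in the clusters, against 7.25 and 5.1 RPKM in GFP-negative cells and 2.58 and 2.79 RPKM in MEF.

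**Figure D2:**
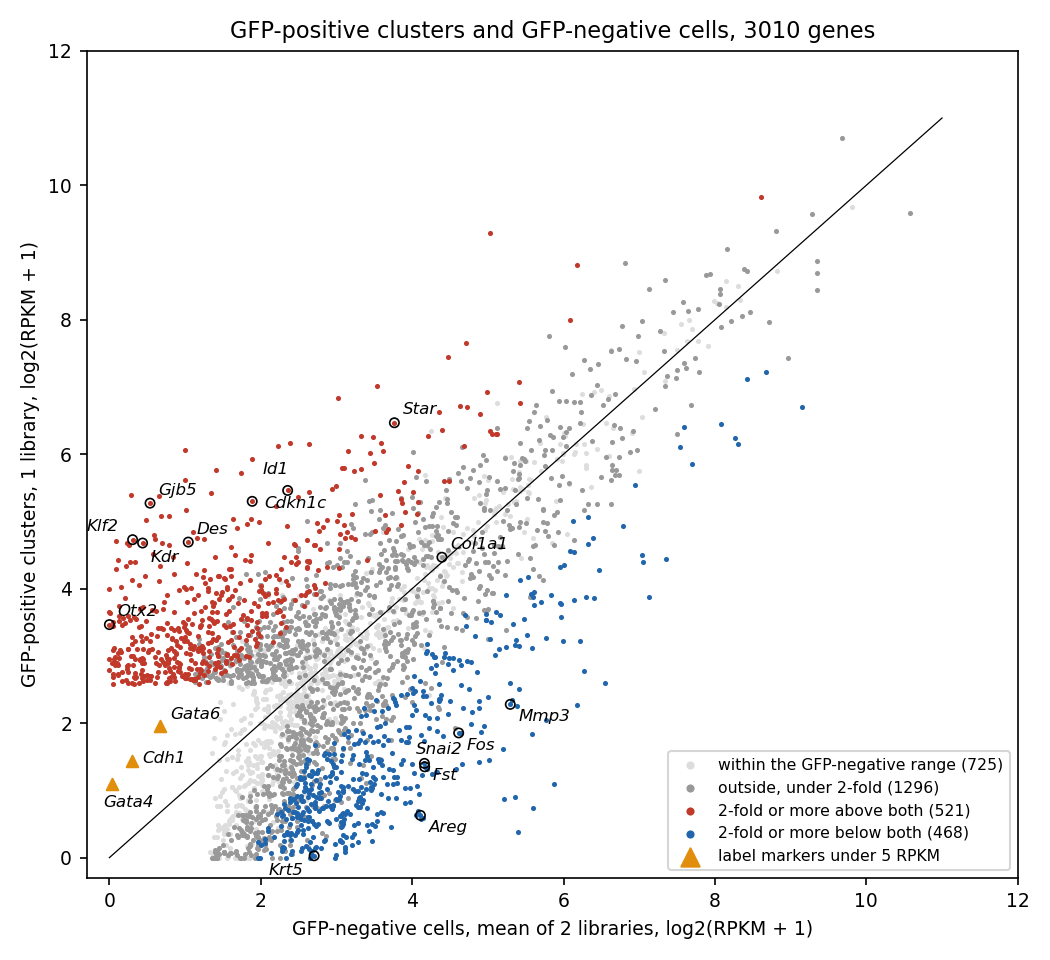
Level in the GFP-positive clusters (vertical axis, 1 library) against the mean of the 2 GFP-negative libraries (horizontal axis), both log2(RPKM + 1), for the 3010 genes with 5 RPKM or more in at least 1 of the 3 libraries. The 521 genes in red lie 2-fold or more above both GFP-negative libraries and the 468 in blue 2-fold or more below both; Gata4, Gata6 and Cdh1 (triangles) are under 5 RPKM.

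Epithelial genes were higher in the clusters for simple epithelium and lower for stratified epithelium. By reads 11 of 44 were higher (25%, against 12.2% of all genes) and 4 lower (9.09%, against 15.8%). Keratins 8 and 18, the filament pair of simple epithelium, were higher: Krt8 was at 4.29 RPKM in the clusters, 0.13 and 0.343 RPKM in GFP-negative cells and 0.0552 and 0.059 RPKM in MEF. Krt18 was 11.6 RPKM in the clusters, 3.13 and 4.24 RPKM in GFP-negative cells and 0.664 and 0.31 RPKM in MEF. Krt19 was 9.73 RPKM in the clusters, against 0.115 and 3.71 RPKM in GFP-negative cells and 0.161 and 0.201 RPKM in MEF. Krt7 was at 1.12 RPKM in the clusters, 0 and 0.0653 RPKM in GFP-negative cells and 0.0656 and 0.102 RPKM in MEF. The tight junction protein Cldn3 was 2.94 RPKM in the clusters, 0.0718 and 0.923 RPKM in GFP-negative cells and 0 and 0 RPKM in MEF. P-cadherin, Cdh3, was 1.12 RPKM in the clusters, against 0.0118 and 0.0778 RPKM in GFP-negative cells and 0.544 and 0.969 RPKM in MEF. In contrast Krt5 and Krt14, the keratin pair of basal epidermal cells, were nearly absent from the clusters. Krt5 was at 0.0193 RPKM in the clusters, 6.34 and 4.79 RPKM in GFP-negative cells and 0.029 and 0.029 RPKM in MEF. Krt14 had 0 estimated reads in the clusters, which allows up to 3, against 52 and 510 in GFP-negative cells, or 1.07 and 11.3 RPKM. Dsp, the desmosomal plaque protein desmoplakin, was also lower by reads, with 43 estimated reads in the clusters against 349 and 205 in GFP-negative cells. Grhl2, an activator of epithelial genes, had 7 estimated reads in the clusters against 37 and 196 in GFP-negative cells. Epcam, another surface protein of epithelium, had 4 estimated reads in the clusters and 0 and 5 in GFP-negative cells.

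Connexins, the proteins of gap junctions, included genes on the higher side. Gjb5 at 1132 estimated reads in the clusters and 37 and 2 in GFP-negative cells lay 38-fold above the nearer library. Gja1, the widespread connexin of fibroblasts, was 193 RPKM in the clusters, 96.6 and 42.3 RPKM in GFP-negative cells and 13 and 10.5 RPKM in MEF. The clusters lay above both MEF libraries in Gjb5 and Gja1. Gjb5 and Krt7 also stand in the trophoblast list. By reads 3 of its 13 genes were higher (23.1%) and 1, Ets2, lower (7.69%), against 12.2% and 15.8% of all genes. Of the factors that define trophoblast, Cdx2, Gata3 and Hand1 had 0 estimated reads in the clusters. Eomes, which mesoderm also uses, was 1.27 RPKM in the clusters, against 0.958 and 1 RPKM in GFP-negative cells and 0.0639 and 0.0711 RPKM in MEF, with overlapping counting intervals in clusters and GFP-negative cells.

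Of 18 regulators of mesenchymal identity, 0 were higher by reads and 5 were lower (27.8%, against 15.8% of all genes). Snai2, a Snail-family repressor of Cdh1, was at 1.55 RPKM in the clusters, 14.9 and 19.2 RPKM in GFP-negative cells and 16.4 and 12.4 RPKM in MEF. Prrx1, a homeobox factor of limb mesenchyme, was 3.02 RPKM in the clusters, 11 and 6.17 RPKM in GFP-negative cells and 10.9 and 10.03 RPKM in MEF. Zeb2, another repressor of Cdh1, was 1.1 RPKM in the clusters, against 3.66 and 2.67 RPKM in GFP-negative cells and 1.52 and 1.17 RPKM in MEF. Twist2 was at 1.78 RPKM in the clusters, 4.24 and 3.64 RPKM in GFP-negative cells and 0.568 and 0.709 RPKM in MEF. The 3 factors Snai2, Prrx1 and Zeb2 lay below both GFP-negative and both MEF libraries. Vim, the filament protein vimentin, was 21.9 RPKM in the clusters, 22.8 and 39 RPKM in GFP-negative cells and 169 and 156 RPKM in MEF, so that both treated groups lay far below MEF and the clusters close to GFP-negative replicate 1.

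The fibroblast and interstitial matrix list had 31 measured genes, of which 2 were higher (6.45%) and 9 lower by reads (29.0%). Over all genes these shares were 12.2% and 15.8%. At 5 RPKM or more, 1 of 23 was 2-fold higher (4.35%) and 6 were 2-fold lower (26.1%), against 17.3% and 15.5% of all genes. Among the lower genes, Postn, the matrix protein periostin, was 0.101 RPKM in the clusters, against 5.19 and 2.98 RPKM in GFP-negative cells and 37.4 and 45.3 RPKM in MEF. Fbn1, the microfibril protein fibrillin, was at 0.0751 RPKM in the clusters, 1.32 and 1.17 RPKM in GFP-negative cells and 4.88 and 5.12 RPKM in MEF. The receptor Pdgfrb, which also marks pericytes, was 0.124 RPKM in the clusters, 1.45 and 4.23 RPKM in GFP-negative cells and 10.4 and 8.1 RPKM in MEF. These 3 genes are graded, with MEF above GFP-negative cells and GFP-negative cells above the clusters. Other lower genes were highest in GFP-negative cells. Tnc, the adhesion-modulating matrix protein tenascin C, was 22.3 RPKM in the clusters, against 68.2 and 70.6 RPKM in GFP-negative cells and 35.5 and 41 RPKM in MEF. Timp1, an inhibitor of matrix metalloproteases, was at 24.4 RPKM in the clusters, 77.6 and 79.97 RPKM in GFP-negative cells and 52.6 and 49.6 RPKM in MEF. Sfrp1, a secreted Wnt antagonist, was 3.96 RPKM in the clusters, 11.7 and 13.8 RPKM in GFP-negative cells and 5.52 and 5.07 RPKM in MEF. Col6a3, a chain of collagen VI, was 5.94 RPKM in the clusters, against 19.9 and 25 RPKM in GFP-negative cells and 16.5 and 18.5 RPKM in MEF. Col6a2, another chain of collagen VI, went the other way, with 10.3 RPKM in the clusters, 3.27 and 4.46 RPKM in GFP-negative cells and 25.4 and 21.5 RPKM in MEF.

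The main fibrillar collagen did not separate clusters from GFP-negative cells. Col1a1 was 21.1 RPKM in the clusters, 19 and 21 RPKM in GFP-negative cells and 338 and 292 RPKM in MEF, so the clusters were kept as higher by a margin of under 0.1 RPKM, and all 3 libraries were far below MEF. Thy1, a surface protein of fibroblasts, was 64.6 RPKM in the clusters, against 106 and 127 RPKM in GFP-negative cells and 186 and 163 RPKM in MEF. Summed over the 31 genes, the list gave 372 RPKM in the clusters, 604 and 658 RPKM in GFP-negative cells and 1798 and 1752 RPKM in MEF. In pooled cells, fewer cells of a type and less RNA per cell cannot be told apart.

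Matrix proteases were among the larger differences. Mmp2, gelatinase A, was at 12.6 RPKM in the clusters, 60.2 and 62.4 RPKM in GFP-negative cells and 9.27 and 11.8 RPKM in MEF. Mmp3, stromelysin, whose promoter with its AP-1 letters is printed above, was 3.85 RPKM in the clusters, 69.5 and 20.9 RPKM in GFP-negative cells and 3.34 and 3.69 RPKM in MEF. In both, the GFP-negative cells stood far above the clusters, which lay just above MEF. The protease inhibitors Serpinf1 and Serpine2 were lower. Serpinf1 was 1.49 RPKM in the clusters, against 19.9 and 15.1 RPKM in GFP-negative cells and 25.6 and 27.6 RPKM in MEF. Serpine2 was at 1.75 RPKM in the clusters, 9.87 and 9 RPKM in GFP-negative cells and 2.57 and 2.26 RPKM in MEF. Plau, the urokinase plasminogen activator, was higher with 30.4 RPKM in the clusters, 2.6 and 11.3 RPKM in GFP-negative cells and 3.37 and 6.53 RPKM in MEF. The aggrecanase Adamts4 was 7.47 RPKM in the clusters, against 0.354 and 0.521 RPKM in GFP-negative cells and 0.297 and 1.06 RPKM in MEF. The complement inhibitor Serping1 was at 18.5 RPKM in the clusters, 0.709 and 4.26 RPKM in GFP-negative cells and 15.2 and 11.7 RPKM in MEF. Plau thus lay on the opposite side from Serpinf1 and Serpine2. Of 29 members of the list 4 were higher (13.8%) and 7 lower (24.1%) by reads. In the basement membrane and integrin list 4 of 28 were higher (14.3%) and 7 lower (25%). Over all genes these shares were 12.2% and 15.8%. Nid1, the linker protein nidogen, was 10.4 RPKM in the clusters, 30.03 and 34 RPKM in GFP-negative cells and 10.9 and 11 RPKM in MEF. Itgb1, the integrin chain shared by most matrix receptors, was 7.18 RPKM in the clusters, against 20.1 and 16.4 RPKM in GFP-negative cells and 34.7 and 36.2 RPKM in MEF.

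**Figure D3:**
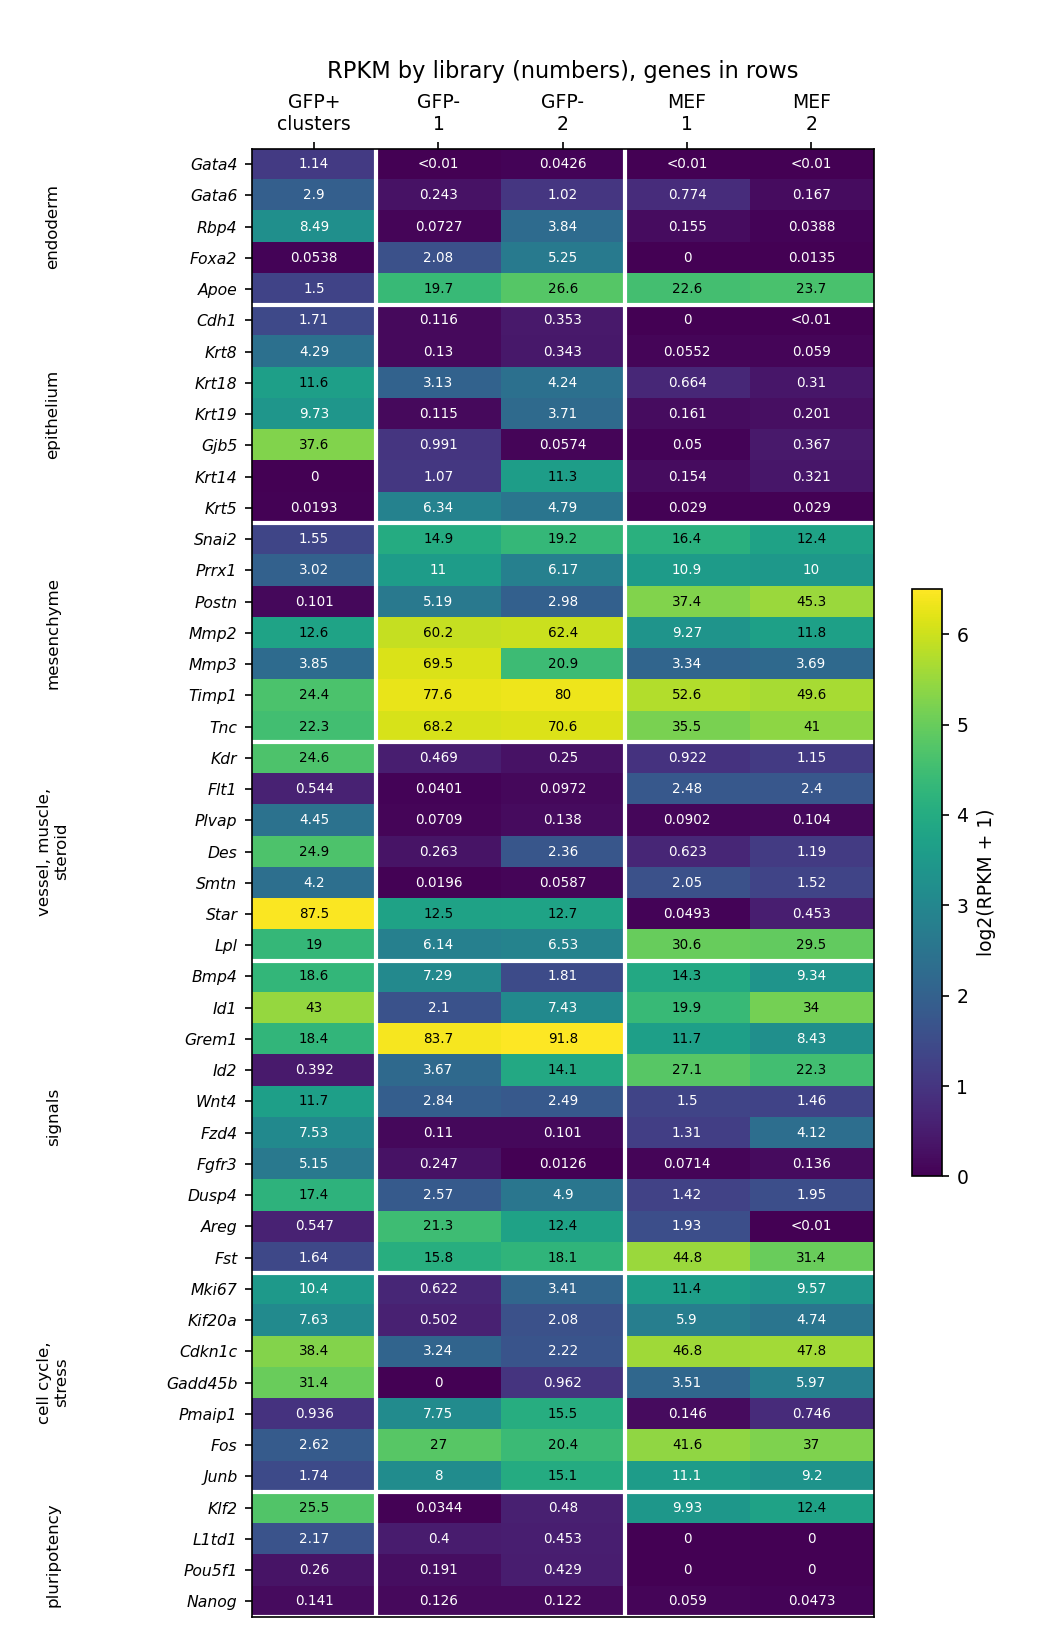
RPKM in each library (numbers in the cells; colour is log2(RPKM + 1)) for genes in rows, grouped by role, with the clusters in the first column, GFP-negative replicates 1 and 2 next and MEF replicates 1 and 2 last. Kdr, Gjb5, Des and Klf2 are between 24.6 and 37.6 RPKM in the clusters and at most 2.36 RPKM in GFP-negative cells, while Snai2, Fst, Areg and Fos are at most 2.62 RPKM in the clusters and at least 12.4 RPKM in GFP-negative cells.

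Kdr was higher while several genes that define endothelium were near 0. It had 10020 estimated reads in the clusters against 237 and 118 in GFP-negative cells, and at 52.5-fold above the nearer library it was one of the larger differences with many reads. Flt1, another receptor of the same growth factor family, was at 0.544 RPKM in the clusters, 0.0401 and 0.0972 RPKM in GFP-negative cells and 2.48 and 2.4 RPKM in MEF. Plvap, a protein of endothelial diaphragms, was 4.45 RPKM in the clusters, 0.0709 and 0.138 RPKM in GFP-negative cells and 0.0902 and 0.104 RPKM in MEF. These 3 were the higher genes by reads among 20 endothelial genes (15%, against 12.2% of all genes), and 0 were lower (against 15.8%). Cd34, which marks endothelium as well as blood progenitors and some fibroblasts, was kept as higher with 6.25 RPKM in the clusters, against 4.34 and 2.85 RPKM in GFP-negative cells and 1.41 and 1.17 RPKM in MEF, under 2-fold beyond the nearer library. Other genes that define endothelium were near 0 in the clusters: Pecam1 had 1 estimated read, Cdh5 3 and Tek 4. The clusters also lay above GFP-negative cells in ligands of these receptors. Vegfb, a ligand of Flt1, was at 19.3 RPKM in the clusters, 0.174 and 0.149 RPKM in GFP-negative cells and 1.35 and 2.09 RPKM in MEF. Vegfa, the main ligand of Kdr, was 13.8 RPKM in the clusters, 3.02 and 11.5 RPKM in GFP-negative cells and 2.21 and 3.15 RPKM in MEF, close to GFP-negative replicate 2.

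Some genes of muscle and of steroid-making cells were higher. Des, the muscle filament protein desmin, was 24.9 RPKM in the clusters, against 0.263 and 2.36 RPKM in GFP-negative cells and 0.623 and 1.19 RPKM in MEF. Smtn, a smooth muscle cytoskeleton protein, was at 4.2 RPKM in the clusters, 0.0196 and 0.0587 RPKM in GFP-negative cells and 2.05 and 1.52 RPKM in MEF. Ryr2, the cardiac calcium release channel, had 620 estimated reads in the clusters against 6 and 3 in GFP-negative cells. By reads 6 of 29 muscle genes were higher (20.7%) and 1 lower (3.45%), against 12.2% and 15.8% of all genes. Acta2, smooth muscle actin, was 2.38 RPKM in the clusters, 1.97 and 9.68 RPKM in GFP-negative cells and 171 and 171 RPKM in MEF. Actc1 and Tnnt2, which define cardiac muscle, had 0 estimated reads each. Star, which carries cholesterol into mitochondria for steroid synthesis and is induced by cAMP, was 87.5 RPKM in the clusters, against 12.5 and 12.7 RPKM in GFP-negative cells and 0.0493 and 0.453 RPKM in MEF. Cyp11a1, the enzyme that acts next, was at 1.27 RPKM in the clusters, 0.00752 and 0.0403 RPKM in GFP-negative cells and 0 and 0 RPKM in MEF. Lpl, lipoprotein lipase, was 19 RPKM in the clusters, 6.14 and 6.53 RPKM in GFP-negative cells and 30.6 and 29.5 RPKM in MEF. GFP-negative cells were themselves above MEF in Star, and the clusters were highest. Of 8 genes of fat and steroid-making cells, these 3 were higher by reads and 2 were lower. These shares are 37.5% and 25%, against 12.2% and 15.8% of all genes. Cd36, a fatty acid transporter, had 60 estimated reads in the clusters against 732 and 219 in GFP-negative cells. Scarb1, a receptor of high-density lipoprotein, had 46 against 618 and 477. Cebpa, a factor of fat cell formation, was kept as lower with 0.0426 RPKM in the clusters, against 0.103 and 9.89 RPKM in GFP-negative cells and 8.8 and 6.07 RPKM in MEF, near GFP-negative replicate 1.

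Developmental transcription factors went both ways, with 5 of 31 higher and 5 lower by reads. These shares are 16.1% each way, against 12.2% higher and 15.8% lower over all genes. Otx2, a homeobox factor of anterior epiblast, visceral endoderm and brain, was 10.1 RPKM in the clusters, 0 RPKM in both GFP-negative libraries and 0.144 and 0.0848 RPKM in MEF. With 1447 estimated reads in the clusters it was at least 558-fold higher, against a floor of 3 reads in each GFP-negative library. Foxa1, a forkhead factor of endoderm, had 61 estimated reads in the clusters and 0 in both GFP-negative libraries. Hoxc9 was at 4.1 RPKM in the clusters, 0.0609 and 0.0653 RPKM in GFP-negative cells and 1.32 and 0.813 RPKM in MEF. Hoxc10 was 2.28 RPKM in the clusters, 0.0367 and 0.354 RPKM in GFP-negative cells and 2.09 and 2.47 RPKM in MEF. Irx3, a homeobox factor of limb and neural tube, was lower with 6.06 RPKM in the clusters, against 19.2 and 17 RPKM in GFP-negative cells and 1.38 and 3.14 RPKM in MEF. Nes, the progenitor filament nestin, was at 6.51 RPKM in the clusters, 17.4 and 39.9 RPKM in GFP-negative cells and 10.03 and 9.9 RPKM in MEF. Pax6, a factor of neural and eye tissue, had 67 estimated reads in the clusters against 4 and 3 in GFP-negative cells. Among blood and macrophage genes Lyz2 and C1qa had 0 estimated reads in the clusters. Cd14 was 45.5 RPKM in the clusters, 69.3 and 52.3 RPKM in GFP-negative cells and 1.32 and 1.86 RPKM in MEF. Csf1r was 0.726 RPKM in the clusters, against 0.0102 and 0.0838 RPKM in GFP-negative cells and 0.517 and 0.61 RPKM in MEF.

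Genes of BMP signalling differed along the pathway. Bmp4, a BMP ligand, was at 18.6 RPKM in the clusters, 7.29 and 1.81 RPKM in GFP-negative cells and 14.3 and 9.34 RPKM in MEF. Bmp1, a protease that frees BMPs and processes collagen, was 10.7 RPKM in the clusters, 1.44 and 4.12 RPKM in GFP-negative cells and 1.93 and 1.77 RPKM in MEF. Id1, a target and a partner-blocking inhibitor of basic helix-loop-helix factors, was 43 RPKM in the clusters, against 2.1 and 7.43 RPKM in GFP-negative cells and 19.9 and 34 RPKM in MEF. Grem1, a secreted BMP antagonist, was at 18.4 RPKM in the clusters, 83.7 and 91.8 RPKM in GFP-negative cells and 11.7 and 8.43 RPKM in MEF. Higher ligand and lower antagonist thus stood beside a higher Id1, but Id2, another gene of that family, was lower with 0.392 RPKM in the clusters, 3.67 and 14.1 RPKM in GFP-negative cells and 27.1 and 22.3 RPKM in MEF. Inhbb, the beta B subunit of activin and inhibin, was 32.7 RPKM in the clusters, against 72.7 and 85.5 RPKM in GFP-negative cells and 5.33 and 5.81 RPKM in MEF. The intracellular mediators Smad1, Smad2 and Smad4 were lower by reads. Smad1 had 29 estimated reads in the clusters against 381 and 167 in GFP-negative cells, and Smad4 173 against 700 and 581. Lefty1, an antagonist of Nodal, was at 3.12 RPKM in the clusters, 0 and 0.602 RPKM in GFP-negative cells and 0 and 0.05 RPKM in MEF. Of 42 genes in the list 6 were higher by reads (14.3%) and 8 lower (19.05%), against 12.2% and 15.8% of all genes.

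In the TGF-beta response list 3 of 18 were higher (16.7%) and 4 lower (22.2%) by reads, against 12.2% and 15.8% of all genes. Ctgf, a direct target, was higher in the clusters than in GFP-negative cells and far below MEF. It was 24.4 RPKM in the clusters, 1.42 and 11.2 RPKM in GFP-negative cells and 641 and 659 RPKM in MEF. Tgfbi, a secreted matrix protein named for its induction by TGF-beta, was 7.51 RPKM in the clusters, against 0.298 and 3.04 RPKM in GFP-negative cells and 0.919 and 1.19 RPKM in MEF. Tpm1, a tropomyosin, was at 4.41 RPKM in the clusters, 9.68 and 9.97 RPKM in GFP-negative cells and 35.5 and 32.9 RPKM in MEF.

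Of 43 genes of Wnt signalling 11 were higher (25.6%) and 8 lower (18.6%) by reads, against 12.2% and 15.8% of all genes. Wnt4, a ligand, was 11.7 RPKM in the clusters, 2.84 and 2.49 RPKM in GFP-negative cells and 1.5 and 1.46 RPKM in MEF. Porcn, the acyltransferase that readies Wnt ligands for secretion, was 5.01 RPKM in the clusters, against 0.00712 and 0.0687 RPKM in GFP-negative cells and 0.166 and 0.462 RPKM in MEF. The receptors Fzd4 and Fzd6 were higher: Fzd4 was at 7.53 RPKM in the clusters, 0.11 and 0.101 RPKM in GFP-negative cells and 1.31 and 4.12 RPKM in MEF. Fzd6 was 4.58 RPKM in the clusters, 0.318 and 1.58 RPKM in GFP-negative cells and 0.116 and 0.24 RPKM in MEF. Lgr5, the R-spondin receptor of epithelial stem cells, had 685 estimated reads in the clusters against 1 and 20 in GFP-negative cells. Antagonists lay on both sides. The secreted Sfrp1 and Sfrp2 were lower, and Sfrp2 was 2.61 RPKM in the clusters, against 10.5 and 7.99 RPKM in GFP-negative cells and 39.1 and 37.6 RPKM in MEF. Sfrp4, of the same family, was higher by reads with 58 estimated reads in the clusters against 3 and 5 in GFP-negative cells. Nkd1, an intracellular inhibitor, was also higher, with 780 against 253 and 49. Notum, a feedback inhibitor that removes the lipid of Wnt proteins, was at 0.653 RPKM in the clusters, 7.52 and 1.64 RPKM in GFP-negative cells and 0.0685 and 0.0991 RPKM in MEF. The nuclear effector Tcf7 was 0.131 RPKM in the clusters, 1.51 and 0.754 RPKM in GFP-negative cells and 0.265 and 0.0932 RPKM in MEF. Axin2, a widely used target of the pathway, was 0.674 RPKM in the clusters, against 0.332 and 0.28 RPKM in GFP-negative cells and 0.382 and 0.772 RPKM in MEF.

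In FGF and EGF signalling the receptor Fgfr3 was at 5.15 RPKM in the clusters, 0.247 and 0.0126 RPKM in GFP-negative cells and 0.0714 and 0.136 RPKM in MEF. Dusp4, a phosphatase induced by ERK that acts back on it, was 17.4 RPKM in the clusters, 2.57 and 4.9 RPKM in GFP-negative cells and 1.42 and 1.95 RPKM in MEF. Dusp6, a related phosphatase, was 62.2 RPKM in the clusters, against 43.6 and 20.1 RPKM in GFP-negative cells and 7.45 and 8.6 RPKM in MEF. Ligands of the EGF receptor were lower. Areg, whose promoter carries the CRE and TATA letters printed above, was at 0.547 RPKM in the clusters, 21.3 and 12.4 RPKM in GFP-negative cells and 1.93 and 0.00639 RPKM in MEF. Hbegf was 0.0412 RPKM in the clusters, 4.58 and 0.383 RPKM in GFP-negative cells and 4.09 and 7.7 RPKM in MEF. Egfr itself was 1.59 RPKM in the clusters, against 0.62 and 0.553 RPKM in GFP-negative cells and 0.393 and 0.407 RPKM in MEF. Sprouty and Spred proteins, inhibitors of the same cascade, lay on both sides. Spry1 was higher by reads with 103 estimated reads in the clusters against 3 and 54 in GFP-negative cells. Spry4 and Spred2 were lower. Spry4 had 163 estimated reads in the clusters against 727 and 568 in GFP-negative cells, and Spred2 118 against 1420 and 1002. Igfbp3, which binds insulin-like growth factors, was at 69 RPKM in the clusters, 20.7 and 29.7 RPKM in GFP-negative cells and 99.5 and 92.2 RPKM in MEF. Over the list 7 of 45 were higher (15.6%) and 9 lower (20%) by reads, against 12.2% and 15.8% of all genes.

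**Figure D4:**
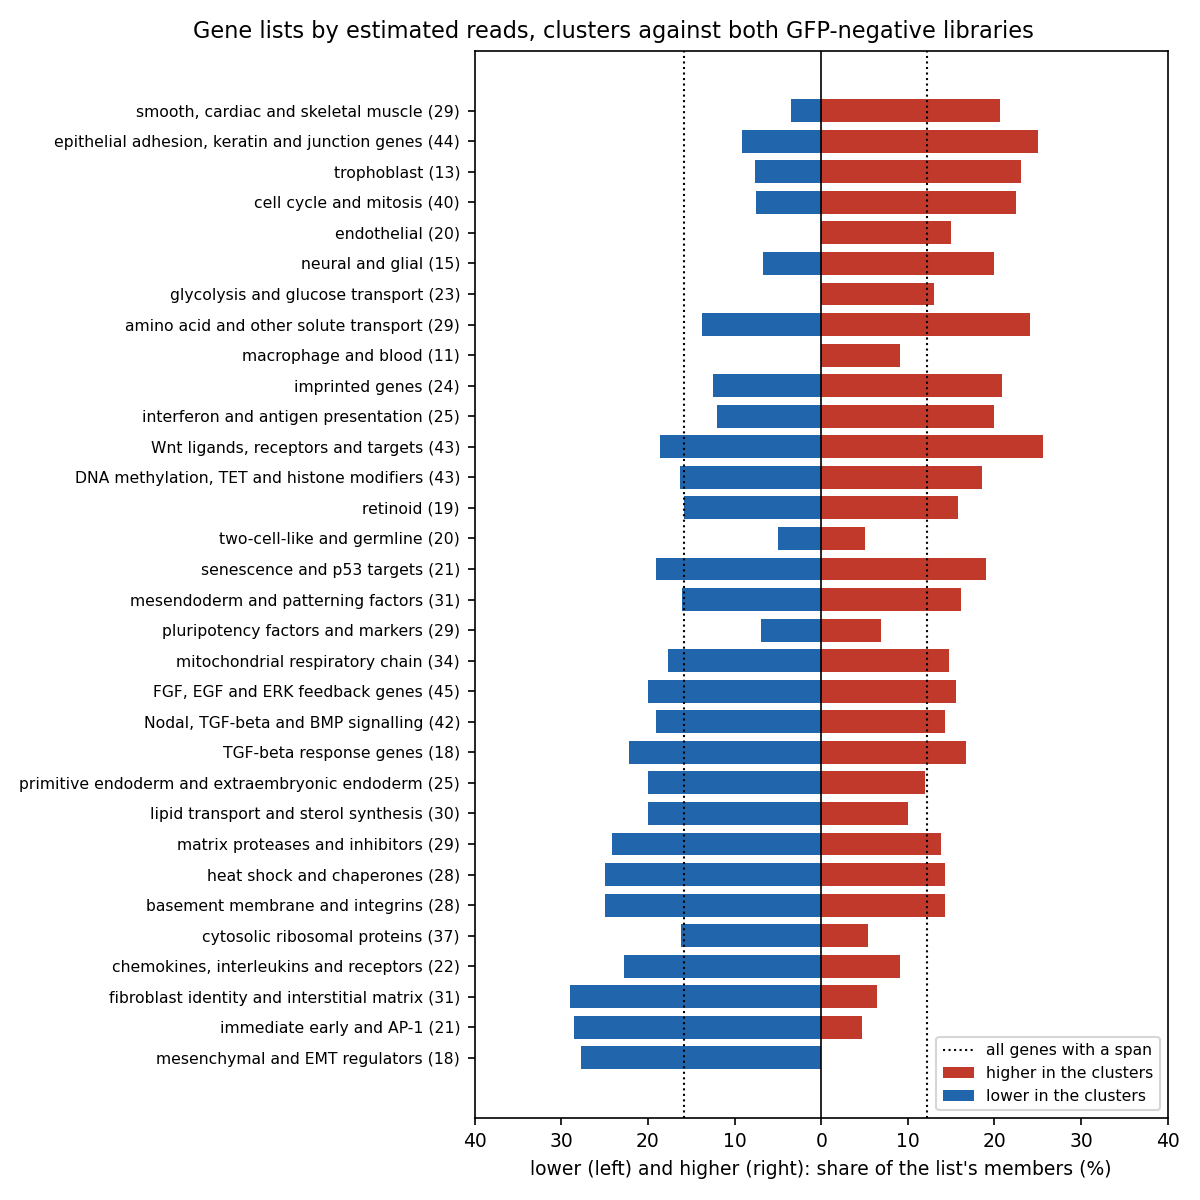
Share of the members of each gene list (percent, number of members with estimated reads in brackets) that were higher (red, to the right) or lower (blue, to the left) in the clusters than in both GFP-negative libraries by estimated reads, for lists with 10 or more such members. Dotted lines mark the shares of all 13671 genes, 12.2% higher and 15.8% lower; mesenchymal regulators had 0 higher and 5 of 18 lower, and epithelial genes 11 of 44 higher and 4 lower.

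Immediate early genes, which growth signals and handling switch on within minutes, held more lower than higher genes. By reads 1 of 21 was higher (4.76%, against 12.2% of all genes) and 6 were lower (28.6%, against 15.8%), and the other 14 were neither. At 5 RPKM or more, 1 of 15 was 2-fold higher (6.67%) and 4 were 2-fold lower (26.7%), against 17.3% and 15.5% of all genes. Of the same 15, 4 were kept as higher and 8 as lower, against 37.6% and 38.3% of all genes. Fos was 2.62 RPKM in the clusters, 27 and 20.4 RPKM in GFP-negative cells and 41.6 and 37 RPKM in MEF. Its partner Junb was 1.74 RPKM in the clusters, against 8 and 15.1 RPKM in GFP-negative cells and 11.1 and 9.2 RPKM in MEF. Egr1, a zinc-finger factor, was at 18.9 RPKM in the clusters, 51.4 and 72.4 RPKM in GFP-negative cells and 84.2 and 70.2 RPKM in MEF. Ier3, an early response gene that modulates survival, was 56.9 RPKM in the clusters, 201 and 210.3 RPKM in GFP-negative cells and 40.2 and 40.7 RPKM in MEF. Fos, Junb and Egr1 lay below both MEF libraries too. Jund, the Jun protein that is least tied to growth signals, was higher with 29.9 RPKM in the clusters, against 5.05 and 11.2 RPKM in GFP-negative cells and 12.9 and 12.3 RPKM in MEF. Atf3, a stress-induced factor that was kept as higher, was at 5.87 RPKM in the clusters, 1.57 and 3.84 RPKM in GFP-negative cells and 0.588 and 1.1 RPKM in MEF, under 2-fold beyond the nearer library.

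Stress and arrest genes were split, with 4 of 21 higher and 4 lower by reads. These shares are 19.05% each way, against 12.2% higher and 15.8% lower over all genes. Gadd45b, a stress-induced growth-arrest protein, was 31.4 RPKM in the clusters, 0 and 0.962 RPKM in GFP-negative cells and 3.51 and 5.97 RPKM in MEF. Cdkn1c, the imprinted inhibitor of cyclin-dependent kinases p57, was 38.4 RPKM in the clusters, against 3.24 and 2.22 RPKM in GFP-negative cells and 46.8 and 47.8 RPKM in MEF, so that the clusters were near MEF and the GFP-negative cells below both. Fas, the death receptor, was at 5.03 RPKM in the clusters, 0.0681 and 0.308 RPKM in GFP-negative cells and 0.947 and 0.255 RPKM in MEF. Pmaip1, the BH3 protein Noxa, was lower with 0.936 RPKM in the clusters, 7.75 and 15.5 RPKM in GFP-negative cells and 0.146 and 0.746 RPKM in MEF. The p53 target and kinase inhibitor Cdkn1a was 26.4 RPKM in the clusters, against 59.5 and 49.9 RPKM in GFP-negative cells and 7.58 and 11.3 RPKM in MEF. Trp53 itself was at 0.224 RPKM in the clusters, 1.61 and 1.85 RPKM in GFP-negative cells and 2.83 and 4.74 RPKM in MEF. Rps27l, a p53-inducible ribosomal protein variant, was 1.73 RPKM in the clusters, 34.4 and 28.4 RPKM in GFP-negative cells and 7.72 and 10.1 RPKM in MEF.

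Several mitotic genes were higher in the clusters. By reads 9 of 40 cell cycle genes were higher (22.5%) and 3 lower (7.5%), against 12.2% and 15.8% of all genes. Mki67, the proliferation antigen Ki-67, was 10.4 RPKM in the clusters, against 0.622 and 3.41 RPKM in GFP-negative cells and 11.4 and 9.57 RPKM in MEF. Kif20a, a mitotic kinesin, was at 7.63 RPKM in the clusters, 0.502 and 2.08 RPKM in GFP-negative cells and 5.9 and 4.74 RPKM in MEF. Mad2l1, a component of the spindle checkpoint, was 7.55 RPKM in the clusters, 1.71 and 0.875 RPKM in GFP-negative cells and 2.39 and 5.52 RPKM in MEF. Plk1, the polo-like mitotic kinase, was 4.74 RPKM in the clusters, against 0.13 and 0.89 RPKM in GFP-negative cells and 2.94 and 1.39 RPKM in MEF. In Mki67 and Kif20a the clusters were close to or above MEF, and GFP-negative cells were below both. Genes of the S phase did not go with them: Pcna, the clamp of DNA polymerase, was at 4.37 RPKM in the clusters, 12 and 15 RPKM in GFP-negative cells and 27.6 and 25.3 RPKM in MEF. Tk1, thymidine kinase, was 0.0743 RPKM in the clusters, 6.17 and 2.32 RPKM in GFP-negative cells and 2.44 and 2.36 RPKM in MEF. Against these, 2 subunits of the replicative helicase were higher by reads. Mcm4 had 299 estimated reads in the clusters against 83 and 87 in GFP-negative cells, and Mcm7 281 against 78 and 142. At 5 RPKM or more the list was less one-sided: 3 of 12 genes were 2-fold higher (25%) and 2 lower (16.7%). Over all genes these shares were 17.3% and 15.5%. The median difference of the list was -0.35 on the log2 scale as deposited. It was 0.15 with the libraries scaled to a common median ratio.

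Of 25 interferon and antigen presentation genes 5 were higher (20%) and 3 lower (12%) by reads, against 12.2% and 15.8% of all genes. Irf1, an interferon-induced activator, was 9.92 RPKM in the clusters, against 0.0864 and 0.637 RPKM in GFP-negative cells and 1.62 and 2.65 RPKM in MEF. Stat2, a mediator of interferon signals, was at 3.59 RPKM in the clusters, 0.0203 and 0.322 RPKM in GFP-negative cells and 1.79 and 2.85 RPKM in MEF. The immunoproteasome subunit Psmb8 was 11.5 RPKM in the clusters, 0.249 and 1.6 RPKM in GFP-negative cells and 6.44 and 4.17 RPKM in MEF. In all 3 the clusters were the highest of the 5 libraries. Ifitm2 and Ifitm3 are neighbouring antiviral membrane proteins of similar sequence, so their reads can be split between them. Ifitm2 was 68.3 RPKM in the clusters, against 149 and 229.7 RPKM in GFP-negative cells and 90.2 and 96.4 RPKM in MEF. Ifitm3 was at 386 RPKM in the clusters, 113 and 228 RPKM in GFP-negative cells and 611 and 583 RPKM in MEF. Among cytokines Csf1, the macrophage growth factor, was 4.99 RPKM in the clusters, 20.3 and 18.7 RPKM in GFP-negative cells and 51.2 and 49.2 RPKM in MEF. The chemokine Ccl7 was 7.92 RPKM in the clusters, against 41.7 and 38.7 RPKM in GFP-negative cells and 61.9 and 33.8 RPKM in MEF. The receptor chains Il6st and Lifr, which together receive leukaemia inhibitory factor, the cytokine that sustains mouse pluripotent cells, were both higher: Il6st was at 15.1 RPKM in the clusters, 4.62 and 6.75 RPKM in GFP-negative cells and 13.7 and 15.4 RPKM in MEF. Lifr was 2.5 RPKM in the clusters, 0.222 and 1.05 RPKM in GFP-negative cells and 0.623 and 0.743 RPKM in MEF.

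Chromatin genes had 8 of 43 higher (18.6%) and 7 lower (16.3%) by reads, against 12.2% and 15.8% of all genes. The higher ones held members of polycomb repressive complex 1. Cbx8 was 13.5 RPKM in the clusters, against 0.116 and 0.187 RPKM in GFP-negative cells and 1.52 and 0.906 RPKM in MEF. Pcgf2 was at 3.73 RPKM in the clusters, 0.147 and 0.746 RPKM in GFP-negative cells and 0.924 and 1.54 RPKM in MEF. Bmi1, an alternative subunit in the place of Pcgf2, was lower with 0.712 RPKM in the clusters, 5.26 and 2.32 RPKM in GFP-negative cells and 3.57 and 4.59 RPKM in MEF. Ezh2, the methyltransferase of complex 2 and the protein whose level DZNep is known to reduce, had 30 estimated reads in the clusters against 598 and 88 in GFP-negative cells, while its partner Suz12 had 1150 against 692 and 205. Ahcy, the enzyme that DZNep inhibits, was 5.58 RPKM in the clusters, against 0.535 and 2.9 RPKM in GFP-negative cells and 2.61 and 2.03 RPKM in MEF. The germline list had 1 of 20 higher and 1 lower by reads (5% each way, against 12.2% and 15.8% of all genes).

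Imprinted genes at 5 RPKM or more were 2-fold higher in 5 of 9 and 2-fold lower in 1 (against 17.3% and 15.5% of all genes), and 1 of the 5 is Cdkn1c, described above. Over all measured members the list was less one-sided. By reads 5 of 24 were higher (20.8%) and 3 lower (12.5%, Mest, Nnat and Impact), against 12.2% and 15.8% of all genes. The median difference over all members was -0.000703 on the log2 scale. H19, a noncoding RNA, was at 253 RPKM in the clusters, 89.9 and 49.2 RPKM in GFP-negative cells and 1349 and 1343 RPKM in MEF. Igf2, its neighbour, was 109.7 RPKM in the clusters, 68.7 and 60.1 RPKM in GFP-negative cells and 286 and 291 RPKM in MEF. Peg10, a gene derived from a retrotransposon, was 63.5 RPKM in the clusters, against 12.1 and 8 RPKM in GFP-negative cells and 2.12 and 3.59 RPKM in MEF. Ndn, necdin, was at 20.6 RPKM in the clusters, 1.26 and 4.28 RPKM in GFP-negative cells and 60.8 and 46.7 RPKM in MEF. Zrsr1 was 19.98 RPKM in the clusters, 1.76 and 9.08 RPKM in GFP-negative cells and 1.98 and 3.29 RPKM in MEF. Nnat, neuronatin, was the lower one with 1.15 RPKM in the clusters, against 5.39 and 3.88 RPKM in GFP-negative cells and 0.379 and 0.438 RPKM in MEF. In H19, Ndn and Cdkn1c the GFP-negative cells lay below both clusters and MEF, while in Peg10 and Zrsr1 the clusters were the highest of the 5 libraries.

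In metabolism, glycolysis genes lay mostly above the GFP-negative range by small amounts. Of 15 at 5 RPKM or more the clusters lay above both GFP-negative libraries in 11 and below in 2 (against 37.6% and 38.3% of all genes), but 1 of them, Aldoc, was 2-fold higher. The median difference of the list was 0.91 on the log2 scale, against -0.11 over all 3010 genes. Aldoc, an aldolase, was at 17.2 RPKM in the clusters, 1.91 and 2.21 RPKM in GFP-negative cells and 0.035 and 0.257 RPKM in MEF. Tpi1, triose phosphate isomerase, was 153 RPKM in the clusters, 60.1 and 108 RPKM in GFP-negative cells and 48.7 and 34.6 RPKM in MEF. Gapdh, which acts next to it, was 36.2 RPKM in the clusters, against 14 and 25.2 RPKM in GFP-negative cells and 18 and 14.7 RPKM in MEF. Pgk1, phosphoglycerate kinase, was at 23.4 RPKM in the clusters, 15.2 and 10.1 RPKM in GFP-negative cells and 8.67 and 6.72 RPKM in MEF. In these 4 genes the clusters lay above all other libraries shown. Slc16a3, the lactate exporter MCT4, was lower with 5.75 RPKM in the clusters, 13.3 and 8.1 RPKM in GFP-negative cells and 0.191 and 0.2 RPKM in MEF.

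Of 19 retinoid genes 3 were higher and 3 lower by reads (15.8% each way, against 12.2% and 15.8% of all genes). Crabp2, a carrier of retinoic acid to its receptors, and Rdh10, the enzyme that starts its synthesis, were higher beside Rbp4, described above. Crabp2 was 21.2 RPKM in the clusters, against 1.82 and 9.84 RPKM in GFP-negative cells and 0.483 and 1.82 RPKM in MEF. Rdh10 was at 6.91 RPKM in the clusters, 0.407 and 0.633 RPKM in GFP-negative cells and 0.208 and 0.465 RPKM in MEF. Rarb, a retinoic acid receptor and target, was lower with 94 estimated reads in the clusters against 577 and 277 in GFP-negative cells. Stra6, the retinol uptake receptor, had 185 against 817 and 465, and Rarres1, a retinoid-induced gene, 0 against 16 and 28. Cyp26b1, which breaks down retinoic acid, was kept as lower with 6.38 RPKM in the clusters, 11.8 and 13.2 RPKM in GFP-negative cells and 3.24 and 3.03 RPKM in MEF. Crabp1, a carrier related to Crabp2, was 50.6 RPKM in the clusters, against 105 and 99 RPKM in GFP-negative cells and 1.9 and 2.82 RPKM in MEF. In sterol synthesis Sqle, squalene epoxidase, was at 12.4 RPKM in the clusters, 1.88 and 6.36 RPKM in GFP-negative cells and 6.11 and 7.66 RPKM in MEF. Idi1, isopentenyl diphosphate isomerase, was 1.17 RPKM in the clusters, 10.2 and 9.48 RPKM in GFP-negative cells and 4.8 and 11.5 RPKM in MEF. Fdft1, squalene synthase, was 0.811 RPKM in the clusters, against 6.6 and 2.71 RPKM in GFP-negative cells and 1.08 and 2.11 RPKM in MEF. Stard4, a sterol carrier, was at 9.28 RPKM in the clusters, 2.97 and 1.41 RPKM in GFP-negative cells and 3.76 and 6.39 RPKM in MEF. Of the transporters Slc7a5, the large neutral amino acid carrier LAT1, was 6.42 RPKM in the clusters, 0.279 and 1.3 RPKM in GFP-negative cells and 12.3 and 8.22 RPKM in MEF.

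Groups that most cells express at steady levels also held genes beyond the 2-fold limit. Of 36 cytosolic ribosomal protein genes at 5 RPKM or more, 2 were 2-fold higher (5.56%) and 6 were 2-fold lower (16.7%). Over all genes at 5 RPKM or more these shares were 17.3% and 15.5%. Rpl30 was 70.9 RPKM in the clusters, against 4.67 and 24.7 RPKM in GFP-negative cells and 18.7 and 16.9 RPKM in MEF. Rps23 was at 13.2 RPKM in the clusters, 65.8 and 72.6 RPKM in GFP-negative cells and 50.4 and 52.3 RPKM in MEF. Proteins of 1 particle are made in fixed ratio, and these genes have many processed copies that can share reads, so single values of this kind are uncertain. Among 19 heat shock and chaperone genes 3 were 2-fold higher (15.8%) and 4 were 2-fold lower (21%), near the shares of all genes. This balance turned to 4 and 2 with median-ratio scaling. Cryab, a small heat shock protein, was 75.7 RPKM in the clusters, 7.06 and 14.6 RPKM in GFP-negative cells and 25.6 and 26 RPKM in MEF. Dnajb1, a co-chaperone, was 42.3 RPKM in the clusters, against 4.51 and 6.08 RPKM in GFP-negative cells and 14 and 17.6 RPKM in MEF. Hspd1, the mitochondrial chaperonin, was at 6.38 RPKM in the clusters, 22.6 and 19.9 RPKM in GFP-negative cells and 25.9 and 28.1 RPKM in MEF. Atf4, the effector of the integrated stress response, was 134 RPKM in the clusters, 40.05 and 43.4 RPKM in GFP-negative cells and 78.8 and 108 RPKM in MEF. The respiratory chain list had 2 of 23 genes 2-fold higher (8.7%) and 1 lower (4.35%), both below the shares of all genes. It did not hold Ndufa6, a subunit of complex I given below among the largest positive differences.

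The 25 largest positive differences among 2-fold genes with 10 RPKM or more in the clusters ran from 5.11 for Gm5161 to 4.05 for Tmem86a on the log2(RPKM + 1) scale. Beside Gjb5, Gadd45b, Klf2, Kdr and Vegfb, described above, they held Pgp, the phosphatase that removes phosphoglycolate, with 65.7 RPKM in the clusters, against 0.888 and 1.13 RPKM in GFP-negative cells and 21 and 8.51 RPKM in MEF. Arl4d, a small GTPase of the ARF family, was at 40.7 RPKM in the clusters, 0.512 and 0.634 RPKM in GFP-negative cells and 0.773 and 1.35 RPKM in MEF. Flt3l, a cytokine of haematopoietic progenitors, was 24.5 RPKM in the clusters, 0.293 and 0.0738 RPKM in GFP-negative cells and 0.386 and 0.376 RPKM in MEF. Hp, the haemoglobin-binding plasma protein haptoglobin, was 33 RPKM in the clusters, against 0.0447 and 1.46 RPKM in GFP-negative cells and 4.4 and 4.3 RPKM in MEF. Ndufa6, a subunit of respiratory complex I, was at 53.4 RPKM in the clusters, 1.26 and 2.12 RPKM in GFP-negative cells and 1.71 and 3.96 RPKM in MEF. Med11, a subunit of Mediator, was 32.9 RPKM in the clusters, 0.2 and 1.5 RPKM in GFP-negative cells and 1.45 and 3.52 RPKM in MEF. A pair of zinc-finger genes was among them. Zfp799 was 25.2 RPKM in the clusters, against 0.0316 and 0.102 RPKM in GFP-negative cells and 0.295 and 2.39 RPKM in MEF. Zfp870 was at 20.01 RPKM in the clusters, 0.185 and 0.227 RPKM in GFP-negative cells and 6.35 and 1.67 RPKM in MEF. In each of these 8 genes both GFP-negative libraries were at most 2.12 RPKM.

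The 25 largest negative differences ran from -5.02 for Gm11189 to -3.15 for Galnt4. Glrx, glutaredoxin, was 0.501 RPKM in the clusters, 20.5 and 13.6 RPKM in GFP-negative cells and 3.35 and 2.67 RPKM in MEF. Rasl11a, a small GTPase, was 0.549 RPKM in the clusters, against 19.15 and 12.6 RPKM in GFP-negative cells and 3.21 and 4.71 RPKM in MEF. Marveld1, a MARVEL-domain membrane protein, was at 0.365 RPKM in the clusters, 12.1 and 12.3 RPKM in GFP-negative cells and 35.7 and 20.8 RPKM in MEF. Sdhaf1, an assembly factor of succinate dehydrogenase, was 3.14 RPKM in the clusters, 58 and 48.9 RPKM in GFP-negative cells and 32.3 and 11.3 RPKM in MEF. Zbtb33, the methyl-DNA-binding factor Kaiso, was 0.495 RPKM in the clusters, against 34.2 and 7.47 RPKM in GFP-negative cells and 6.16 and 3.06 RPKM in MEF. Many of the 25 genes share a structure that the rule did not name. The measure depends on it, as values per kilobase of the whole gene are lower where introns are long. The median length of the annotated ones was 2573 bases, against 3012 in the 25 largest positive differences. Over all annotated genes at 5 RPKM or more it was 9259 bases. Of the 20 with an annotation, 13 have a single exon (65%) and 6 are annotated as pseudogenes, against 10.2% single-exon and 5.86% pseudogenes among all annotated genes at 5 RPKM or more. Of the 21 annotated among the 25 largest positive ones, 4 have a single exon. Over all annotated 2-fold lower genes 12.4% had a single exon and 4.75% were pseudogenes. The structure thus marks the 25 largest negative differences and not the lower genes as a whole. Of single-exon genes 32.2% were 2-fold in either direction, and of genes with 2 or more exons 32.8%. Between the GFP-negative libraries single-exon genes varied more. Their median absolute difference was 1.14 on the log2 scale, against 0.79 in genes with 2 or more exons. Single-exon genes include copies that can share reads with a parent gene, so their values are uncertain. One is Mcts2, with 1.13 RPKM in the clusters, 60.3 and 55 RPKM in GFP-negative cells and 32.7 and 7.89 RPKM in MEF. Another is Uchl4, with 0.676 RPKM in the clusters, 72 and 30.9 RPKM in GFP-negative cells and 12.6 and 13.5 RPKM in MEF.

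Set beside MEF, most of the 2-fold genes placed the clusters outside the fibroblast range as well. The clusters lay above both MEF libraries in 487 of the 521 higher genes (93.5%) and below both in 397 of the 468 lower genes (84.8%). Over all 3010 genes these shares were 46.4% above and 45.1% below. In 373 of the higher and 256 of the lower genes the clusters were also 2-fold or more beyond both MEF libraries. In 43 of the higher genes and 94 of the lower genes the GFP-negative cells, and not the clusters, were 2-fold or more beyond both MEF libraries on the other side. Cdkn1c and Snai2 show the range of these patterns: in Cdkn1c the clusters were near MEF and GFP-negative cells were low, and in Snai2 the GFP-negative cells were near MEF and the clusters were low. These positions share the clusters with the choice of the genes, so they describe the genes and are not a test.

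**Figure D5:**
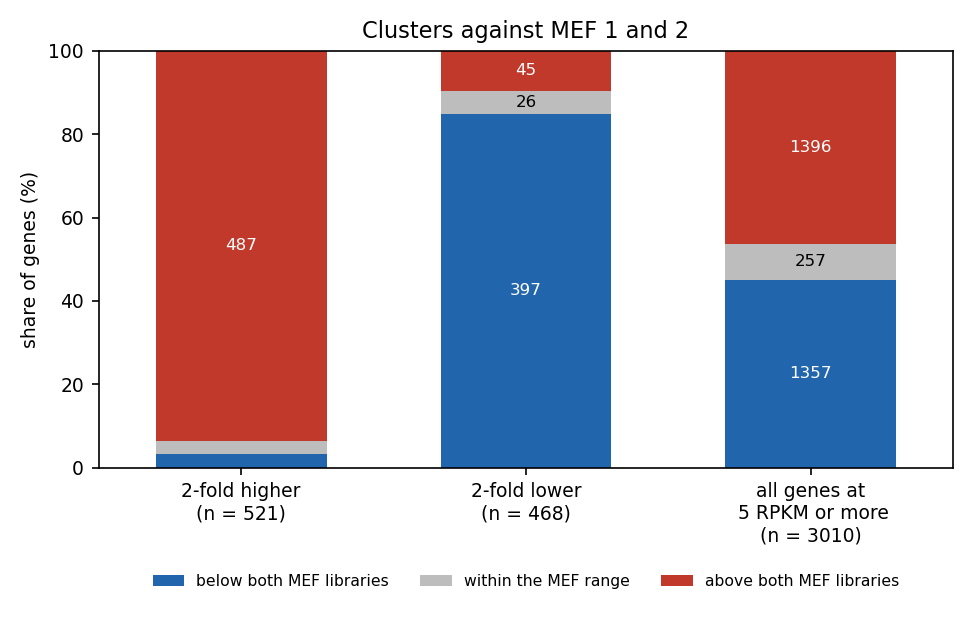
Position of the clusters against MEF replicates 1 and 2 for the genes 2-fold or more above and below both GFP-negative libraries and for all genes at 5 RPKM or more (vertical axis, percent of genes; numbers in the bars are genes). The clusters lay above both MEF libraries (red) in 487 of 521 higher genes, below both (blue) in 397 of 468 lower genes, and near evenly on both sides over all genes.

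The balance of higher and lower genes depended on how the libraries were scaled. With RPKM as deposited, 52.7% of the 989 2-fold genes were higher in the clusters. With the libraries scaled to a common median ratio the share was 64.2%, with 667 higher and 372 lower genes, as this scaling moved the median difference of the 3010 genes from -0.11 to 0.09. Directions near 0 are relative to that shift, and the 2-fold calls named above for Gjb5, Kdr, Klf2 and Areg are many times larger.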

How the data were processed

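RNA of GFP-positive clusters, GFP-negative cells and MEF was sequenced on Illumina instruments from total RNA, per the labels' protocols. The authors deposited 1 table of RPKM values per gene and library. Per the submitters' processing notes, TopHat 1.3.0 and mouse build mm9 were used; which tool counted reads, and whether by strand, is not given in the sources used here. Of 15184 rows, 8 shared a symbol and were left out. The step between values gave each library's depth, and RPKM times gene length (GENCODE annotation of GRCm38, lengths only) gave estimated reads for 13671 genes (90.1%). Of values worth under 8 reads, 82.2% to 83.8% lay within 0.05 of a whole number of reads. The rest did not, and their estimated reads were used all the same and are less certain. These lengths include introns. A pseudocount of 1 was used on the log2 scale. The genes named are taken from the 25 largest differences of each direction among 2-fold genes with 10 RPKM or more in the higher group, up to 6 kept members of each list with the largest difference, the 6 markers, Pou5f1, Sox2, Nanog, Sall4, Col1a1 and Thy1. Other list members, chiefly those under 5 RPKM such as Krt8, Plvap, Lgr5 and Zeb2, were named after their values were seen. Markers, lists and rules were chosen with earlier results of these data known. With 1 library of clusters, no test was run. The alternatives were another pseudocount, other minimums, median-ratio and 75th percentile scaling, leaving out each GFP-negative library, and Poisson intervals. Computation used Python 3.11.15, numpy 2.4.6, pandas 2.3.3 and scipy 1.17.1, and the code was tested on simulated data. A few genes are not reported here.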

Additional observations from a re-analysis of the deposited data

How the results depend on the processing

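With no minimum the clusters lay above both GFP-negative libraries in 4319 genes and below in 5187, against 1133 and 1152 with 5 RPKM, and with a minimum of 10 RPKM in 624 and 648. The 2-fold genes numbered 870 higher with no minimum, and 280 higher and 287 lower with 10 RPKM; in those sets the clusters lay beyond both MEF libraries in 812 and 262 of the higher genes and in 609 and 235 of the lower ones. A minimum of 5 RPKM per kilobase of exon in place of gene length, chosen after seeing the data, gave 2419 kept higher and 2957 kept lower genes, 1136 and 1353 at 2-fold, and 1052 and 1179 of these beyond MEF. Leaving out GFP-negative replicate 1 or 2 gave 669 to 820 higher and 753 to 760 lower 2-fold genes, 1316 to 1353 and 1219 to 1287 kept genes, and 620 to 703 and 593 to 632 beyond MEF, since the range to be passed is then a single value. The higher count passed 1.5 times its value without replicate 2 (820), and the lower count without replicate 1 (760) or 2 (753), of which 363 and 406 were among the 468. A pseudocount of 0.1 gave 567 higher and 605 lower 2-fold genes. Of the 2-fold genes with estimated reads, 457 higher and 421 lower ones had Poisson intervals apart from both GFP-negative libraries. No paired analysis was possible because the clusters are 1 library. Where the clusters lay outside the GFP-negative range, the differences of the 216 genes named kept their sign in all settings. For such genes another pseudocount or leaving out a GFP-negative library cannot change the sign. Only the median-ratio and 75th percentile scaling could have changed it. The differences moved by more than the SD of the GFP-negative libraries in 138 genes with the pseudocount of 0.1. They did so in 63 with median-ratio scaling and in 23 with 75th percentile scaling. Depth limits genes of few reads, and the distance between the GFP-negative libraries limits the rest.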

Other observations

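On chromosome 15 the clusters were 2-fold higher in 25.2% of the genes at 5 RPKM or more and 2-fold lower in 7.83%, against 17.3% and 15.5% over all chromosomes. On chromosome X they were 2-fold higher in 10.4% and 2-fold lower in 22.9%. Chromosomes 15 and X, with 115 and 96 such genes, stand at the ends of the range. Other chromosomes came close to X, with 22.1% and 21.6% lower on chromosomes 12 and 14 and 9.68% higher on chromosome 16. A difference between chromosomes was not tested.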
